A study of Mus musculus with 4 samples.

Results

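The miR-106a–miR-363 cluster is a group of X-linked microRNAs (miRNAs) that is a close copy of the better known miR-17/92 cluster. Its 8 members here are both arms of miR-106a, miR-18b, miR-20b and miR-363, taken by name from the 1907 mature miRNAs listed in a small RNA-seq table, in all 4 of its libraries. The names set the membership, and the cluster itself was chosen from a reading of its levels in these same libraries, so those levels are given as a description with no test. All 8 members had reads in every library, which was true of 621 of the 1907 listed miRNAs.

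The libraries came from E14Tg2A cells, a mouse embryonic stem (ES) cell line of strain 129/Ola, and from epiblast-like aggregates (ELA) made from them. ES serum cells (day 0) were grown in 10% fetal calf serum with LIF, a cytokine that sustains self-renewal. ES 2iL cells (day 0) were moved to a serum-free N2/B27 medium with 1 μM PD0325901, a MEK inhibitor, 3 μM CHIR99021, a GSK3 inhibitor, and LIF, which was at 1000 U/mL in both media. ELA serum and ELA 2iL were floating aggregates of such cells after 2 days in a minimal N2/B27 medium, and are named after the medium of the ES cells they came from, so that serum and 2iL stand for that origin wherever ELA are compared. Each library was 1 pool of RNA from 3 sets of experiments, so the spread between cultures is unknown, and intervals below cover counting error only. The RNA came from whole cultures, in which fewer cells carrying a miRNA and less of it per cell cannot be told apart.

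Levels are RPM, the reads of a miRNA per 1000000 reads on all listed miRNAs, and they compare reads rather than molecules between different miRNAs. The read totals recovered from these values ran from 587363 in ELA 2iL to 8056984 in ES serum, with 2767016 in ES 2iL and 4309257 in ELA serum. The cluster itself had the fewest reads in ES 2iL (6248) and ELA 2iL (6526), which set the precision of most folds. The free-text descriptions of 2 libraries, ES 2iL and ELA serum, are exchanged relative to their titles, source names and days in culture, and the titles, which the column names follow, were used. The miR-302–miR-367 cluster, known from primed cells, has 10 listed miRNAs, which summed to 78.4 RPM in the column named ES 2iL and to 37319 in the column named ELA serum. The 18 listed miRNAs of the ES cell cluster miR-290–miR-295, of which 12 had reads, summed to 183326 and 55535 RPM. Exchanging the names would turn the direction of every comparison of the summed cluster given below.

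A miRNA is cut from a hairpin as a 5′ arm (5p) and a 3′ arm (3p), 1 of which is usually kept in the silencing complex RISC as the guide. Bases 2 to 8 of the guide, the seed, pair with target mRNAs, and miRNAs with 1 seed largely share targets. The miR-17/92 cluster and its copies miR-106a–miR-363 and miR-106b/25 are known for promoting cell cycle progression and survival, and the miR-17 seed is close to that of the miR-290 and miR-302 families that dominate pluripotent cells.

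In mm9, the build the reads were mapped to, the 6 hairpins span 875 bp on the minus strand, chrX:50094870-50095744. In the order of transcription they are Mir106a, Mir18b, Mir20b, Mir19b-2, Mir92-2 and Mir363, 46 to 138 bp apart. The annotation (GENCODE vM1) places the non-coding gene Kis2 just upstream on the same strand (chrX:50095740-50098137), overlapping the first hairpin by 5 bp, and no other annotated gene overlaps the cluster. Mir19b-2 and Mir92-2 give mature 3p miRNAs with 2 exact copies each in the genome, the other being in the miR-17/92 cluster, so mmu-miR-19b-3p and mmu-miR-92a-3p are not members. The 7 member sequences that RefSeq gave (GRCm38.p6) each had 1 exact copy in mm9.

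The sequences below are RefSeq's, with the seed in capitals, and show how little separates the guides from their miR-17/92 counterparts. Positions are counted from 1 at the 5′ end, with the member's base first.
mmu-miR-106a-5p: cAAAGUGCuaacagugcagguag
mmu-miR-17-5p: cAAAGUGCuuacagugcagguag
mmu-miR-20b-5p: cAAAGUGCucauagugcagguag
mmu-miR-20a-5p: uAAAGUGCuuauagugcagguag
mmu-miR-18b-5p: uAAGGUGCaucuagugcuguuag
mmu-miR-18a-5p: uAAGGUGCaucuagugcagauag
mmu-miR-363-3p: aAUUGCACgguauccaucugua
mmu-miR-92a-3p: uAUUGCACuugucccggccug

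mmu-miR-106a-5p and mmu-miR-17-5p differ by 1 base (A10U), mmu-miR-20b-5p and mmu-miR-20a-5p by 2 (C1U and C10U), and mmu-miR-18b-5p and mmu-miR-18a-5p by 2 (U18A and U20A). All of these lie outside the seed. mmu-miR-363-3p shares only the seed region with mmu-miR-92a-3p, with 10 of 21 positions identical. The mismatches allowed in mapping are not given in the sources used here, so some reads of a near-identical pair may sit on the other name, which makes these levels uncertain to that extent. The opposite arms are shown next because they differ from their counterparts in other ways.
mmu-miR-106a-3p: aCUGCAGUgccagcacuucuuac
mmu-miR-17-3p: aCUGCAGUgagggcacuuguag
mmu-miR-20b-3p: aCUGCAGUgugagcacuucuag
mmu-miR-20a-3p: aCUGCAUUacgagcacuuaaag
mmu-miR-18b-3p: uACUGCCCuaaaugccccuucu
mmu-miR-18a-3p: aCUGCCCUaagugcuccuucug

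mmu-miR-106a-3p matched mmu-miR-17-3p at 16 of 22 positions and mmu-miR-20b-3p matched mmu-miR-20a-3p at 17 of 22. The first pair shares its seed, whereas mmu-miR-20b-3p and mmu-miR-20a-3p differ within it (G7U), with seeds CUGCAGU and CUGCAUU. mmu-miR-18b-3p starts 1 base further upstream than mmu-miR-18a-3p. With that offset 19 of 21 positions are identical, but the seeds read ACUGCCC and CUGCCCU. No sequence is shown for mmu-miR-363-5p.

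The cluster as a whole was lowest in ground-state ES cells in 2iL and highest in the aggregates. The 8 members together accounted for 0.658% of all ES serum reads (Wilson 95% confidence interval 0.652 to 0.663) and 0.226% of those of ES 2iL (0.220 to 0.231), but for 1.35% (1.33 to 1.36) of those of ELA serum and 1.11% of those of ELA 2iL (1.08 to 1.14). None of these intervals overlap. From ES cells to ELA the summed level was 2.05-fold higher in serum (exact 95% interval 2.02 to 2.07) and 4.92-fold higher in 2iL (4.75 to 5.10). ES 2iL was 2.91-fold below ES serum (2.84 to 2.99), whereas ELA 2iL was 1.21-fold below ELA serum (1.18 to 1.24). The ES 2iL library enters both the larger ES–ELA difference and the larger difference between media, so these are not separate observations. Without mmu-miR-363-3p, the most abundant member, the other 7 were 1.13-fold higher in ELA 2iL than in ELA serum (1.09 to 1.17), so by RPM the direction of the sum turned without it. Of these 7, both arms of miR-18b were lower in ELA 2iL by RPM, and mmu-miR-106a-5p, mmu-miR-106a-3p and mmu-miR-20b-5p were lower as well under TMM and DESeq2 size factors.

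**Figure D1:**
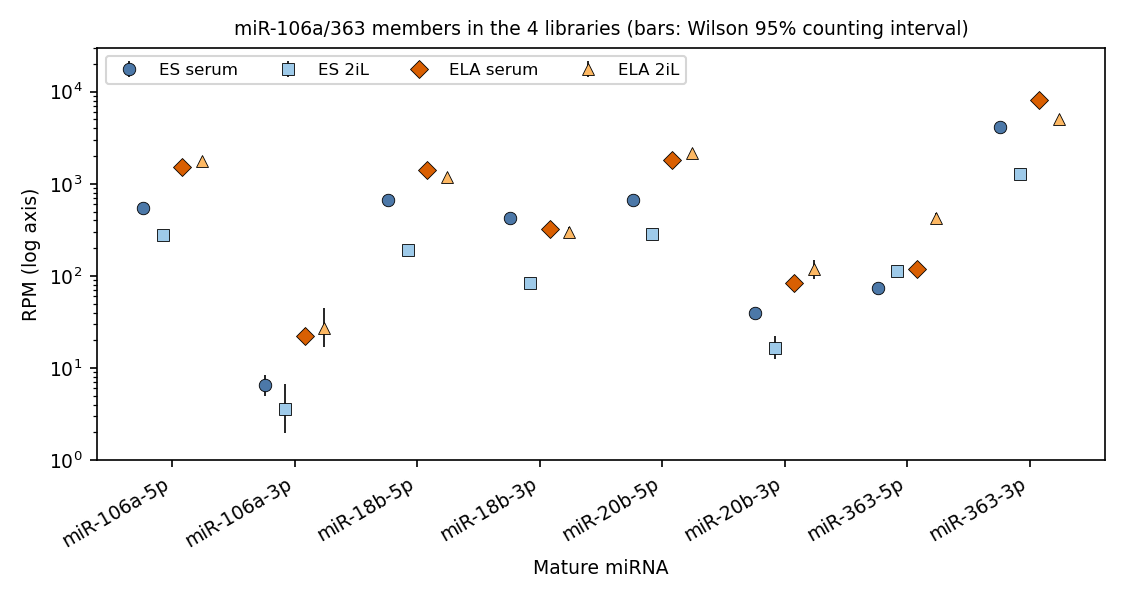
RPM (log axis) of each of the 8 members in the 4 libraries, with Wilson 95% counting intervals. ES 2iL was the lowest library for 7 of the 8 members, and mmu-miR-363-5p, lowest in ES serum, was the exception.

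The seed family of miR-17 is represented by mmu-miR-106a-5p and mmu-miR-20b-5p, which carry the seed of mmu-miR-17-5p. mmu-miR-106a-5p measured 540 RPM in serum and 275 in 2iL in ES cells, and 1522 in serum and 1789 in 2iL in ELA. mmu-miR-20b-5p measured 659, 282, 1824 and 2150 RPM in the same order. Both were lowest in ES 2iL and higher in either ELA library than in either ES library. mmu-miR-106a-5p was 2.82-fold higher in ELA in serum (exact 95% interval 2.71 to 2.93) and 6.51-fold in 2iL (5.93 to 7.16). For mmu-miR-20b-5p the folds were 2.77 (2.67 to 2.86) and 7.62 (6.96 to 8.34). In ES cells the level in 2iL was 1.97-fold below that in serum for mmu-miR-106a-5p (1.82 to 2.13) and 2.34-fold below for mmu-miR-20b-5p (2.17 to 2.52). In ELA both were 1.18-fold higher in 2iL, a direction that turned under TMM and DESeq2 size factors, with log2 differences of -0.21 and -0.25 for mmu-miR-106a-5p and -0.20 and -0.25 for mmu-miR-20b-5p.

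mmu-miR-18b-5p, the guide of a family of its own with mmu-miR-18a-5p, measured 672 RPM in serum and 193 in 2iL in ES cells, and 1422 in serum and 1199 in 2iL in ELA. It was 2.11-fold higher in ELA in serum (exact 95% interval 2.04 to 2.19) and 6.22-fold in 2iL (5.55 to 6.98). Its level in ES 2iL was 3.49-fold below ES serum (3.19 to 3.82), and ELA 2iL was 1.19-fold below ELA serum (1.10 to 1.28). By RPM it was highest in ELA serum, whereas the 2 guides of the miR-17 family were highest in ELA 2iL.

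mmu-miR-363-3p, which carries the seed of miR-25, miR-92a and miR-367, was the most abundant member in every library. It measured 4159 RPM in serum and 1291 in 2iL in ES cells, and 8137 in serum and 5108 in 2iL in ELA, which placed it at rank 33, 67, 20 and 30 among the listed miRNAs. It was 1.96-fold higher in ELA in serum (exact 95% interval 1.93 to 1.99) and 3.96-fold in 2iL (3.77 to 4.16). 2iL lay below serum at both stages, by 3.22-fold in ES cells (3.11 to 3.34) and by 1.59-fold in ELA (1.54 to 1.65). Its part of the cluster's reads was 63.3% (ES serum) and 57.2% (ES 2iL) in ES cells and 60.5% (ELA serum) and 46.0% (ELA 2iL) in the aggregates.

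Each opposite arm was less abundant than its guide. mmu-miR-106a-3p, the rarest member, measured 6.45 RPM (52 reads) in serum and 3.61 (10 reads) in 2iL in ES cells, and 22.5 (97 reads) in serum and 27.2 (16 reads) in 2iL in ELA. It was 3.49-fold higher in ELA in serum (exact 95% interval 2.47 to 4.98) and 7.54-fold in 2iL (3.22 to 18.6). The interval for the difference between media included no difference at both stages, with ratios of 2iL to serum from 0.254 to 1.11 in ES cells and from 0.665 to 2.07 in ELA. mmu-miR-20b-3p measured 40.0, 16.6, 83.3 and 117 RPM in the order above. It was 2.08-fold higher in ELA in serum (1.79 to 2.43) and 7.07-fold in 2iL (4.80 to 10.5). In serum this interval lay below that of its guide, and in 2iL the intervals overlapped.

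mmu-miR-18b-3p measured 423 RPM in serum and 83.8 in 2iL in ES cells, and 323 in serum and 296 in 2iL in ELA. It was the only member that was lower in ELA than in ES cells in serum, by 1.31-fold (exact 95% interval 1.23 to 1.40), and it was 3.53-fold higher in ELA in 2iL (2.89 to 4.32). ES 2iL lay 5.05-fold below ES serum (4.42 to 5.79), the largest difference between media of any member in ES cells, and the ELA libraries differed by 1.09-fold, with an interval from 1.28-fold lower to 1.08-fold higher in 2iL.

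mmu-miR-363-5p measured 74.7 RPM in serum and 114 in 2iL in ES cells, and 119 in serum and 424 in 2iL in ELA. It was 1.59-fold higher in ELA in serum (exact 95% interval 1.41 to 1.80) and 3.72-fold in 2iL (3.14 to 4.41). It was also the only member that was higher in 2iL in ES cells, by 1.52-fold (exact 95% interval 1.33 to 1.75), and it was 3.56-fold higher in 2iL in ELA (3.05 to 4.15). The difference in ES cells was 0.60 on the log2 scale under RPM but 0.03 under TMM and 0.20 under DESeq2 size factors, whereas that in ELA was 1.39 and 1.34 under these.

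Set against all miRNAs, differences were read on log2(RPM + 1), which understates those of low miRNAs, at limits of a mean log2 level of at least 5 (31 RPM) over the pair of libraries and a difference of 1 or more in size. The study set such limits for miRNAs lower in ELA only, and here they were applied in both directions and also between media. In serum, 4 of the 8 members were higher in ELA by this rule and 0 lower, where 8.33% of the 288 miRNAs at that level were higher and 14.6% lower. The 4 were the guides mmu-miR-106a-5p, mmu-miR-18b-5p and mmu-miR-20b-5p, with mmu-miR-20b-3p. mmu-miR-20b-3p missed the limit with totals without the 5 most abundant miRNAs (0.98), and mmu-miR-363-3p, just under it at 0.97, passed under DESeq2 size factors (1.16). By RPM mmu-miR-106a-3p passed the fold but not the level. In 2iL, 7 of the 8 members were higher and 0 lower, where 15.3% of 314 miRNAs were higher and 25.2% lower, and the remaining member, mmu-miR-106a-3p, again missed only the level. The median difference of the 8 members was 1.06 in serum and 2.62 in 2iL, beside 0.08 and -0.30 over all miRNAs at the level.

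Between media, 4 of the 8 members were lower in ES 2iL and 0 higher, where 14.8% of 310 miRNAs were lower and 32.9% higher. These were both arms of miR-18b, mmu-miR-20b-5p and mmu-miR-363-3p, while mmu-miR-106a-3p and mmu-miR-20b-3p were under the level. mmu-miR-106a-5p, at -0.97 by RPM, passed under TMM (-1.55), DESeq2 size factors (-1.38) and totals without the 5 most abundant miRNAs (-1.25). In ELA, 1 of the 8 members, mmu-miR-363-5p, was higher in 2iL and 0 were lower, where 20.9% of the miRNAs at the level were higher and 8.94% lower. Under TMM and DESeq2 size factors mmu-miR-363-3p also passed, as lower (-1.11 and -1.16), which gave 1 higher and 1 lower. The median difference of the 8 members was -1.22 in ES cells and 0.24 in ELA by RPM, and under TMM it was -1.78 and, with the sign turned, -0.20. Under DESeq2 size factors these were -1.61 and -0.25. The median over all miRNAs was itself 0.50 higher in 2iL in ES cells and 0.35 higher in ELA under RPM, against -0.07 and -0.09 under TMM, and relative to the RPM median the summed cluster was at -2.05 in ES cells and -0.62 in ELA. The background split also moved with the scaling. Under TMM 16.5% of miRNAs were higher in ES 2iL and 23.9% lower, and 9.27% were higher in ELA 2iL and 18.5% lower. DESeq2 size factors gave 20.6% higher and 21.3% lower in ES 2iL, and 8.28% higher and 19.5% lower in ELA 2iL. Totals without the 5 most abundant miRNAs gave 25.5% and 19.4% in ES 2iL. Between stages, DESeq2 size factors gave 11.5% higher and 10.8% lower in serum, and these reduced totals gave 20.4% higher and 18.2% lower in 2iL.

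**Figure D2:**
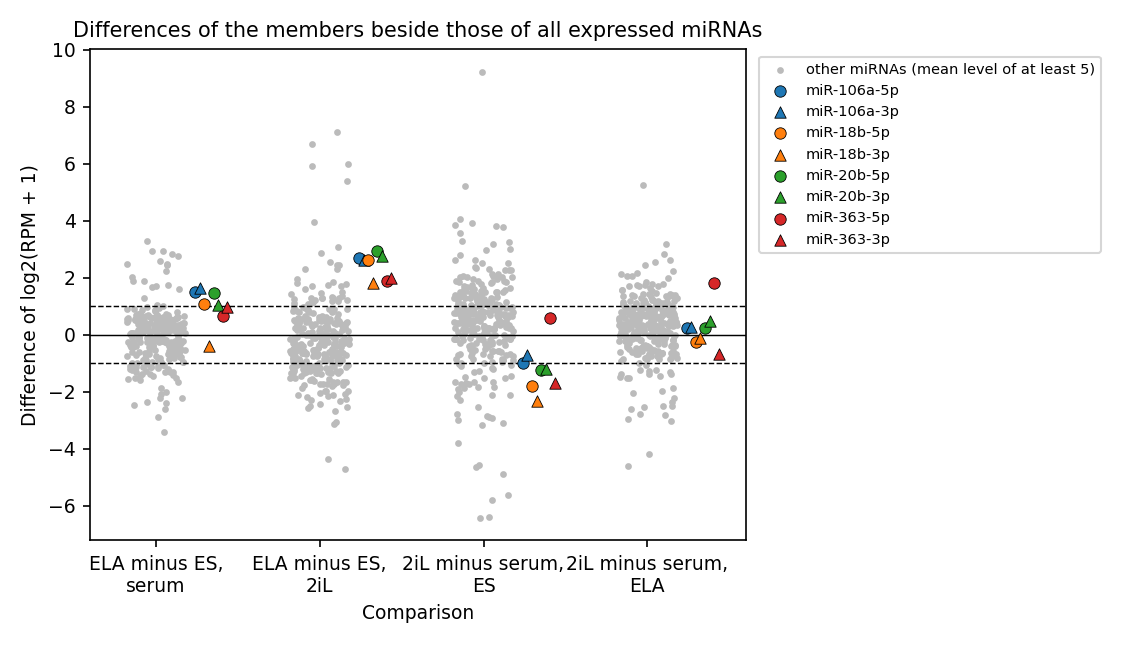
Differences of log2(RPM + 1) for each comparison, with the members in colour (circles 5p, triangles 3p) beside all other miRNAs with a mean level of at least 5 (grey), and dashed lines at a difference of 1 in size. In 2iL all 8 members lay above 1 for ELA minus ES, and between media in ES cells mmu-miR-363-5p was the only member above 0.

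The ratio of a member to its miR-17/92 paralog within a library does not depend on how libraries are scaled. In reads, mmu-miR-106a-5p stood to mmu-miR-17-5p as 0.644 (95% counting interval 0.620 to 0.669) in serum and 0.185 (0.172 to 0.2004) in 2iL in ES cells, and 1.24 (1.20 to 1.29) in serum and 0.790 (0.729 to 0.857) in 2iL in ELA. The X-linked copy thus had fewer reads than its paralog in both ES libraries and more in ELA serum. The ratio of mmu-miR-20b-5p to mmu-miR-20a-5p was 0.787, 0.253, 1.55 and 0.838 in the same order, and that of mmu-miR-18b-5p to mmu-miR-18a-5p was 1.30, 0.267, 1.52 and 0.764. mmu-miR-363-3p, far less abundant than mmu-miR-92a-3p, gave 0.0493, 0.0173, 0.113 and 0.0475. As mmu-miR-92a-3p can come from either cluster, this last ratio does not set the X-linked copy against miR-17/92 alone. All 4 ratios were lowest in ES 2iL and highest in ELA serum, and the highest was 5.67 to 6.69 times the lowest.

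From ES cells to ELA these 4 ratios were 2.75-fold to 4.26-fold higher in 2iL. In serum they were 1.93-fold higher for miR-106a-5p/miR-17-5p (1.83 to 2.03), 1.97-fold for miR-20b-5p/miR-20a-5p (1.87 to 2.07), 2.29-fold for miR-363-3p/miR-92a-3p (2.26 to 2.33) and 1.17-fold for miR-18b-5p/miR-18a-5p (1.10 to 1.23). In ELA, where RPM placed mmu-miR-106a-5p and mmu-miR-20b-5p slightly higher in 2iL, their ratios were 1.57-fold (1.44 to 1.72) and 1.85-fold lower in 2iL (1.70 to 2.01).

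The ratios of the opposite arms rested on fewer member reads than those of their guides. mmu-miR-106a-3p to mmu-miR-17-3p was 0.0605 (0.0458 to 0.0801) in serum and 0.0173 (0.00924 to 0.0323) in 2iL in ES cells, and 0.188 (0.152 to 0.234) in serum and 0.126 (0.0749 to 0.212) in 2iL in ELA. The ratio of mmu-miR-20b-3p to mmu-miR-20a-3p was 0.461, 0.269, 0.736 and 0.622, and that of mmu-miR-18b-3p to mmu-miR-18a-3p was 0.976, 0.442, 1.51 and 1.58. ES 2iL was again the lowest library for each. The counting intervals of the ELA libraries overlapped for all 3 of these ratios.

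**Figure D3:**
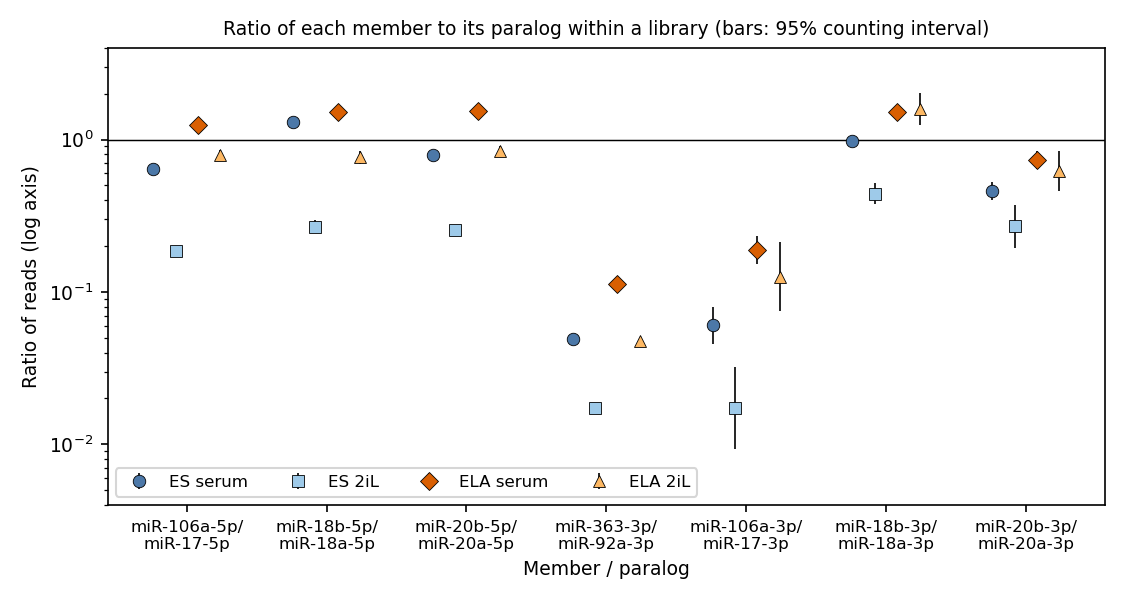
Ratio of reads (log axis) of 7 members to their miR-17/92 counterparts in each library, with 95% counting intervals. The counterpart mmu-miR-92a-3p can come from either cluster. ES 2iL had the lowest ratio for each of the 7, from 0.0173 for miR-106a-3p/miR-17-3p to 0.442 for miR-18b-3p/miR-18a-3p.

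The sums of the paralogous clusters depended more on the scaling. The 10 miRNAs of the miR-17/92 list, which leaves out the mature forms that both loci can give, summed to 5576 RPM in serum and 6730 in 2iL in ES cells, and 6295 in serum and 17233 in 2iL in ELA. By RPM this sum was lowest in ES serum, but under TMM (6582, 5335, 7578 and 15298), DESeq2 size factors and totals without the 5 most abundant miRNAs it was lowest in ES 2iL, as was the sum of the 8 members under all 4 scalings. The margin differed, with ES 2iL at 1790 per 1000000 and ES serum at 7762 for the members under TMM. At the limits above, 0 of the 10 were higher and 1 lower in ELA in serum, beside 8.33% and 14.6% of all miRNAs, and 4 were higher and 0 lower in 2iL, beside 15.3% and 25.2%. Between media 1 was higher and 1 lower in ES 2iL, beside 32.9% and 14.8%, and 3 were higher and 0 lower in ELA 2iL, beside 20.9% and 8.94%. mmu-miR-19a-3p, a guide of the survival-promoting miR-19 family, had the largest difference of the list in 2iL, from 1141 RPM in ES cells to 6677 in ELA.

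The 6 miRNAs of the miR-106b/25 list, whose hairpins lie in an intron of the replication gene Mcm7, summed to 12326, 23486, 12444 and 15289 RPM, and this sum was highest in ES 2iL under all 4 scalings. Against the same shares of all miRNAs, 0 were higher in ELA in either medium, with 0 lower in serum and 2 lower in 2iL. Between media 3 were higher in ES 2iL and 2 in ELA 2iL, with 0 lower in either.

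The seed that mmu-miR-106a-5p and mmu-miR-20b-5p share, AAAGUGC, was found in 5 other listed miRNAs among the 1623 with a RefSeq sequence: mmu-miR-93-5p, mmu-miR-17-5p, mmu-miR-20a-5p, mmu-miR-106b-5p and mmu-miR-6383, the last listed at 0 in every library. The family as a whole was not lowest in ES 2iL. It summed to 6065 RPM in serum and 15326 in 2iL in ES cells, and 8544 in serum and 14368 in 2iL in ELA. The 2 members made up 19.8% of its ES serum reads (Wilson 95% confidence interval 19.4 to 20.1) and 3.63% of those in ES 2iL (3.46 to 3.82), but 39.2% in ELA serum (38.7 to 39.7) against 27.4% in ELA 2iL (26.5 to 28.4). Most of the family's reads in ES 2iL were those of mmu-miR-93-5p, at 11258 RPM, against 2778 in ES serum, 2274 in ELA serum and 4486 in ELA 2iL.

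**Figure D4:**
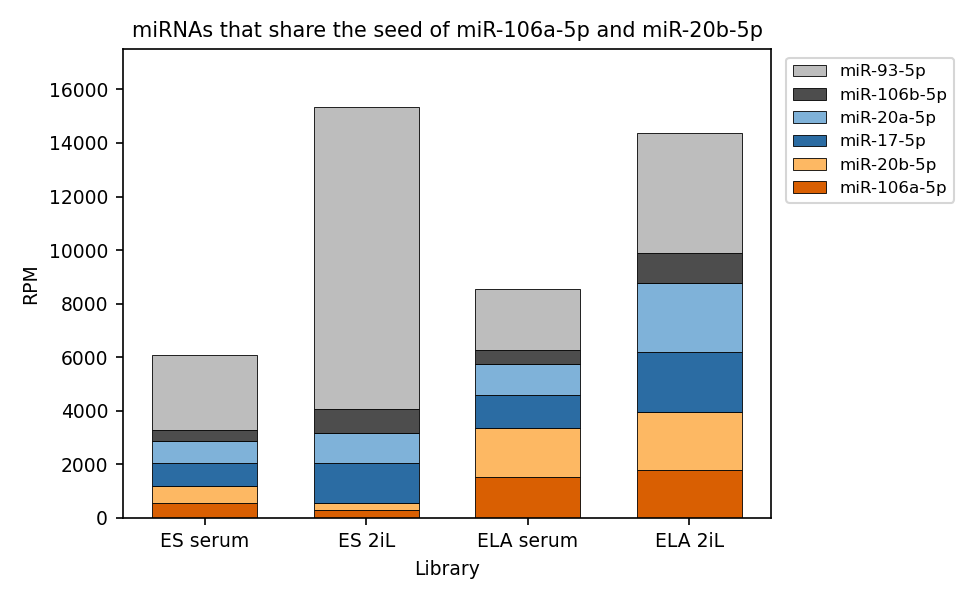
RPM of the 6 detected miRNAs that share a seed with mmu-miR-106a-5p and mmu-miR-20b-5p, stacked for each library. The 2 members (orange) made up 3.63% of the family's reads in ES 2iL and 39.2% in ELA serum, and mmu-miR-93-5p (light grey) was the most abundant single miRNA in every library.

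For the other seeds with further detected miRNAs, the share of the members was again lowest in ES 2iL and highest in ELA serum. mmu-miR-18b-5p held 56.5% of the reads with the seed AAGGUGC in the serum and 21.1% in the 2iL library of ES cells, and 60.2% and 43.3% in those of ELA, the rest being mmu-miR-18a-5p. mmu-miR-363-3p held 4.12%, 1.37%, 8.90% and 4.15% of the reads with the seed AUUGCAC, a family of 6 in which mmu-miR-92a-3p was the most abundant. mmu-miR-106a-3p and mmu-miR-20b-3p held 30.3%, 8.82%, 47.0% and 40.1% of the reads with the seed CUGCAGU, shared with mmu-miR-17-3p, and there the intervals of the ELA libraries overlapped. No other listed miRNA with a sequence carried the seed of mmu-miR-18b-3p.

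The share of the 2 arms of a hairpin is likewise free of the scaling between libraries. miR-106a was almost entirely 5p, at 98.8% in ES serum, 98.7% in ES 2iL and 98.5% in both ELA libraries, and the intervals of all 4 overlapped. For miR-20b the 3p arm took 5.71%, 5.56%, 4.37% and 5.18% of the reads, with ELA serum (Wilson 95% confidence interval 3.95 to 4.83) below ES serum (5.14 to 6.35). The arm shares of miR-18b and miR-363 differed far more between libraries.

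mmu-miR-18b-3p took 38.6% of the reads of its hairpin in serum (Wilson 95% confidence interval 37.6 to 39.7) and 30.3% in 2iL (27.2 to 33.7) in ES cells, and 18.5% (17.6 to 19.4) and 19.8% (17.3 to 22.6) in ELA. The ES libraries were thus above both ELA libraries, which overlapped each other. The paralog miR-18a had its 3p arm at 45.6%, 20.8%, 18.5% and 10.7% in the same order, also highest in ES serum, but with ES 2iL close to ELA serum. mmu-miR-363-5p went with the medium instead. It took 1.76% of the reads of its hairpin in ES serum (1.63 to 1.91) and 1.44% in ELA serum (1.32 to 1.57), against 8.11% (7.29 to 9.01) and 7.66% (6.80 to 8.63) in the 2iL libraries of ES cells and ELA.

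**Figure D5:**
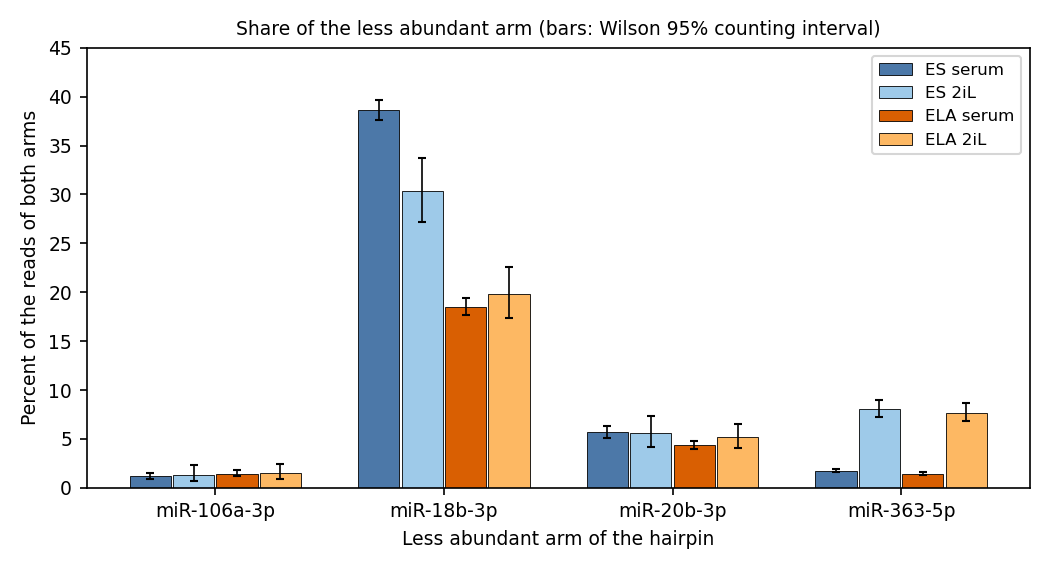
Percent of the reads of a hairpin that fell on its less abundant arm, with Wilson 95% counting intervals. miR-18b-3p was at 38.6% and 30.3% in the ES libraries and at 18.5% and 19.8% in the ELA libraries, and miR-363-5p was at 8.11% and 7.66% in the 2iL libraries and at 1.76% and 1.44% in the serum libraries.

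The remaining hairpins of the X-linked transcript can be followed by their 5p arms, which differ from those of miR-17/92. mmu-miR-19b-2-5p measured 15.8 RPM (127 reads) in serum and 3.61 (10 reads) in 2iL in ES cells, and 25.1 (108 reads) in serum and 57.9 (34 reads) in 2iL in ELA. mmu-miR-92a-2-5p measured 15.6 (126 reads), 3.98 (11 reads), 19.96 (86 reads) and 25.5 RPM (15 reads). Both were lowest in ES 2iL, like 7 of the 8 members. In ES cells they were 4.36-fold (exact 95% interval 2.30 to 9.32) and 3.93-fold (2.13 to 8.08) lower in 2iL than in serum. In 2iL the ELA levels were 16.02-fold (7.74 to 36.3) and 6.42-fold (2.76 to 15.5) higher. In serum mmu-miR-19b-2-5p was 1.59-fold higher in ELA (1.22 to 2.07), and the difference of mmu-miR-92a-2-5p, 1.28-fold, had an interval that included none (0.959 to 1.69). Of their miR-17/92 counterparts, mmu-miR-19b-1-5p was by RPM also lowest in ES 2iL (10.5, against 13.3 in ES serum). mmu-miR-92a-1-5p was lowest in ELA serum (1724). The ratio of reads to the counterpart was lowest in ES 2iL for both arms (0.345 and 0.00223). Of the mature forms that both clusters can give, mmu-miR-19b-3p measured 1965, 5032, 4010 and 16930 RPM and was lowest in ES serum under all 4 scalings. mmu-miR-92a-3p measured 84294, 74623, 71866 and 107463 RPM, lowest in ELA serum by RPM but in ES 2iL under the other 3 scalings.

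The X-linked miRNAs outside the cluster were counted at the same limits. Of the 138 listed miRNAs whose hairpins all lie on X by RefSeq, 108 had reads in some library. In serum 22 of them reached the level, of which 0 were higher and 1 lower in ELA, beside 8.33% higher and 14.6% lower over all miRNAs. In 2iL 19 did, of which 6 were higher and 3 lower, beside 15.3% and 25.2%. Between media, 22 reached it in ES cells, with 5 higher and 5 lower in 2iL beside 32.9% and 14.8%, and 20 in ELA, with 6 higher and 3 lower beside 20.9% and 8.94%.

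Likeness of profile was measured as the Euclidean distance over the 4 libraries between log2(RPM + 1) values centred on their own mean. Only miRNAs outside the cluster with a mean log2 level of at least 5 were ranked, so members were not ranked against each other or against the sum. The nearest to the summed cluster was mmu-miR-34c-5p, at a distance of 0.25, with 474 RPM in serum and 143 in 2iL in ES cells, and 777 in serum and 783 in 2iL in ELA. It was followed by mmu-miR-344-3p (0.44), mmu-miR-134-5p (0.45), mmu-miR-377-5p (0.57) and mmu-miR-541-5p (0.62). For single members, the nearest miRNA outside the cluster was mmu-miR-3535 for both mmu-miR-106a-5p (0.20) and mmu-miR-20b-5p (0.28), with 230, 126, 737 and 930 RPM. For mmu-miR-363-3p it was mmu-miR-541-5p (0.41), with 41627, 12570, 57451 and 40786 RPM. With 4 points that share their libraries and depth, this is a description of pattern only.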

How the data were processed

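The authors trimmed adaptors with Trimmomatic, mapped reads to mm9 (NCBI37) with Bowtie, annotated them by miRBase release 20, summarized them with featureCounts and deposited RPM values. CASAVA 1.8 was named for demultiplexing, and the versions of the other tools, the mismatches allowed and the treatment of multi-mapping reads are not given in the sources used here. All 4 columns were used (0 columns lacked a sample) and each summed to 1000000.

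Dividing the deposited RPM values by the smallest one above 0 in each library gave whole reads for 100% of them (tolerance 0.01 reads). In the shallowest library 1 read is 1.70 RPM and 3 reads are 5.11 RPM. Counts of miRNAs with reads took any value above 0.

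Differences were taken on log2(RPM + 1). Folds of RPM carry exact (Clopper-Pearson) 95% intervals conditional on the summed reads, shares carry Wilson intervals, and ratios within a library carry delta-method intervals on the log scale. With 1 library a group and members chosen with results known, no p-value was computed. No count test was run on the recovered reads for the same reason. edgeR 4.0.16 (TMM) and DESeq2 1.42.0 (size factors) served only for other scalings. Further alternatives were totals without the 5 most abundant miRNAs, pseudocounts of 0.5 and 5 RPM, no filter on level, and, added after the data had been seen, the sum without mmu-miR-363-3p and the libraries named by their descriptions. Functions were tested on simulated reads. Python 3.11.15 with scipy 1.17.1 was used. The members, the lists and the rules for the miRNAs named (all members, other arms of the transcript, the paralogous lists, seed mates, X-linked miRNAs as counts, and the 5 or 3 nearest profiles) were chosen with earlier results of these data known. mm9 hairpins were read from GENCODE vM1, and their sequences were identical to the RefSeq hairpins.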

Additional observations from a re-analysis of the deposited data

Results flagged for a closer look

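Differences of opposite sign under 1 contrast were found for 5 of the members, and their dependence on stage or medium was not tested, as each compares 1 library with 1 library. They were 4 of the 8 members for medium and 1 of 8 for stage, beside 29.3% and 31.7% of the 621 miRNAs with reads in every library. For mmu-miR-18b-3p, ELA minus ES was -0.39 in serum and 1.81 in 2iL (log2), a difference of 2.20. For the contrast of 2iL minus serum, mmu-miR-106a-5p was at -0.97 in ES cells and 0.23 in ELA, a difference of 1.21. mmu-miR-106a-3p was at -0.69 and 0.26, a difference of 0.96 that rests on 10 reads in ES 2iL and 16 in ELA 2iL. mmu-miR-20b-5p was at -1.22 and 0.24, a difference of 1.46, and mmu-miR-20b-3p at -1.22 and 0.49, a difference of 1.71. The positive values in ELA were small, and turned under TMM and DESeq2 size factors for all but mmu-miR-20b-3p, which then stood at 0.06 and 0.01.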

How the results depend on the processing

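The summed cluster kept its direction in all 4 comparisons under the other 3 scalings and both pseudocounts. ELA minus ES in serum (1.03, log2) was 1.06 under TMM, 1.23 under DESeq2 size factors and 0.96 with totals without the 5 most abundant miRNAs. In 2iL (2.30) it was 2.46, 2.41 and 2.55. For 2iL minus serum it was -2.12, -1.95 and -1.82 in ES cells (-1.54 under RPM) and -0.72, -0.76 and -0.24 in ELA (-0.28). Without mmu-miR-363-3p the sums gave 1.14, 2.63, -1.32 and, in the opposite direction, 0.18. With the 2 libraries named by their descriptions they were -1.54, -0.28, 1.03 and 2.30, each reversed. The number of members past a log2 difference of 1 moved by over 1.5 times only for ELA between media, from 1 higher to 2 (1 higher, 1 lower) under TMM and under DESeq2 size factors. Elsewhere it ran from 3 to 5 for ELA against ES in serum, 7 to 8 in 2iL and 4 to 6 between media in ES cells. Of 96 member differences under other scalings, 6 reversed, all 2iL minus serum in ELA, at -0.21 (TMM) and -0.25 (DESeq2) for mmu-miR-106a-5p, -0.16 and -0.20 for mmu-miR-106a-3p, and -0.20 and -0.25 for mmu-miR-20b-5p. The 16 differences of ratios to paralogs stayed within their counting intervals with a pseudocount of 0.5 RPM. This check could hardly have moved them, as the lowest level in these pairs was 193 RPM (mmu-miR-18b-5p in ES 2iL). It does not address reads that may sit on the name of a near-identical miRNA. Leaving out a replicate could not be run, with 1 library a group. Depth limits mmu-miR-106a-3p and mmu-miR-20b-3p most, with 10 and 46 reads in ES 2iL and 16 and 69 in ELA 2iL.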
